A study of Mus musculus with 4 samples.

Results

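The genes described here are 52 genes of the lysosome, comprising 19 genes of the vacuolar proton pump (V-ATPase), 8 cathepsins, 15 other lumenal enzymes and cofactors, 8 lysosomal membrane proteins and the transcription factor genes *Tfeb* and *Tfe3*. They were chosen by gene symbol from a list of lysosomal functions and not by a measured value, although earlier results of these data were known. All 52 were found, each in 1 of the 19645 features of the deposited tables, which name 17958 gene symbols. The study compared mouse embryonic stem cells (ESCs) that were wild type (WT) with ESCs in which *Bmal1*, a core activator of the circadian clock, had been disrupted with CRISPR-Cas9 (KO), with 2 RNA-seq libraries per genotype. Both were cultured on gelatin with serum and leukaemia inhibitory factor, and the KO cells were 1 selected clone carrying a frameshift deletion. The libraries are described as biological duplicates. An effect of the genotype and one of this clone therefore cannot be told apart. Y-linked transcripts were near absent in WT and present in KO. Whether both came from one line is not given in the sources used here, and a difference between lines cannot be told apart from the genotype in any KO to WT comparison.

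Lysosomes are acidic organelles in which hydrolases break down proteins, lipids, glycans and whole organelles. Acidity is provided by the V-ATPase, whose cytosolic V1 sector hydrolyses ATP and whose membrane-embedded V0 sector carries protons into the lumen. The transcription factors TFEB and TFE3 activate many lysosomal genes through the E-box CACGTG, a sequence that BMAL1 with CLOCK also binds, and mTORC1 at the lysosomal surface holds them in the cytosol when nutrients are plentiful. The question asked of the 4 libraries was whether higher V-ATPase transcript levels in KO ESCs formed part of a wider difference in lysosomal transcripts.

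Levels are given as FPKM, fragments scaled to transcript length and to all mapped fragments, which corrects for transcript length so that genes can be compared with each other. No read numbers can be derived from these values, and sequencing depth is therefore not known. *Arntl*, the symbol of *Bmal1* in the files, was measured at 6.05 and 6.29 FPKM in WT and 5.95 and 5.92 FPKM in KO, so the transcript level does not distinguish the genotypes of a frameshift line. Of 8 ESC markers, *Klf4* was lower and *Tfcp2l1* higher in KO at an adjusted p under 0.05, and the summed level of the 8 ranged from 5592 to 6043 FPKM. Markers of other cells were low: 8 primitive endoderm genes summed to 1.39 and 1.48 FPKM in WT and 2.26 and 2.01 FPKM in KO, and no single value exceeded 0.709 FPKM. The 5 usable of 8 macrophage genes, a cell type rich in cathepsins, summed to between 0.0908 and 0.273 FPKM, with *Ptprc*, *Csf1r*, *Lyz2* and *Fcgr3* at 0 in at least 1 library. Fibroblast genes, 6 of 8, summed to 2.23 and 1.91 FPKM in WT and 3.31 and 2.66 FPKM in KO, and trophoblast genes, also 6 of 8, to between 30.7 and 34.8 FPKM in all libraries, *Tfap2c* being higher in KO. The libraries also differed outside these lists. The Y-linked *Ddx3y* was at 0.235 and 0.403 FPKM in WT against 16.4 and 20.6 FPKM in KO, and *Eif2s3y* at 1.40 and 2.04 FPKM against 44.6 and 53.1 FPKM. Features without a gene symbol took 26.8% and 37.3% of all FPKM in WT against 19.0% and 18.1% in KO. With these features left out of the test and FPKM not rescaled, 24 of the tested lysosomal genes rose in place of 20, 7 V-ATPase genes in place of 4 and 3 membrane protein genes in place of 2, where 9.22% of all remaining features did.

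Many lysosomal genes were more highly expressed in KO ESCs. Median log2 fold changes were 0.67 for cathepsins, 0.57 for other lumenal enzymes and 0.25 for the V-ATPase, a difference between groups that was not tested. Of the 50 genes whose mean level reached 0.5 FPKM and were tested, 20 (40%) rose in KO at an adjusted p under 0.05 in limma, a linear model fitted to log2(FPKM + 0.1) of all 12990 features of that level. The share over all tested features was 6.85%. The feature of *Atp6v0a4*, which is merged with a neighbouring gene, alone fell, against 5.6% of all features. With a change over 2-fold also required, 4 genes rose (*Ctsc*, *Hexa*, *Neu1* and *Cd63*) and the merged *Atp6v0a4* feature fell, at the limit of the rule with a log2 fold change of -1.0. Over all features 2.72% rose and 1.42% fell by this rule. The 2 KO values exceeded the 2 WT values for 40 of the 50 genes and were below them for 2, whereas the shares over all features were 27% above and 31.7% below. The median log2 fold change of the 50 genes was 0.36, beside -0.02 for all features. Most of these genes are abundant, and among the 38 with a mean of at least 10 FPKM 17 rose, where 5.6% of all features of that level did. Features of 14 lysosomal genes share their coordinates with a neighbour or are merged with one, so their levels are less certain. Of these, *Atp6v1d*, *Ctsa*, *Ctsb*, *Ppt1* and *Lamp1* rose and *Atp6v0a4* fell. *Atp6v1a*, *Atp6v1b2*, *Ctsz*, *Gla*, *Glb1*, *Mcoln1* and *Npc1* had no call, and *Sgsh* was not tested. *Ctsh* and *Sgsh* were below 0.5 FPKM on average and were not tested. Values of *Ctsh* were 0.183 and 0.0285 FPKM in WT and 0.0862 and 0.256 FPKM in KO, and those of *Sgsh*, a heparan sulfate sulfamidase, were 0.367 and 0.366 FPKM in WT and 0.599 and 0.517 FPKM in KO.

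**Figure D1:**
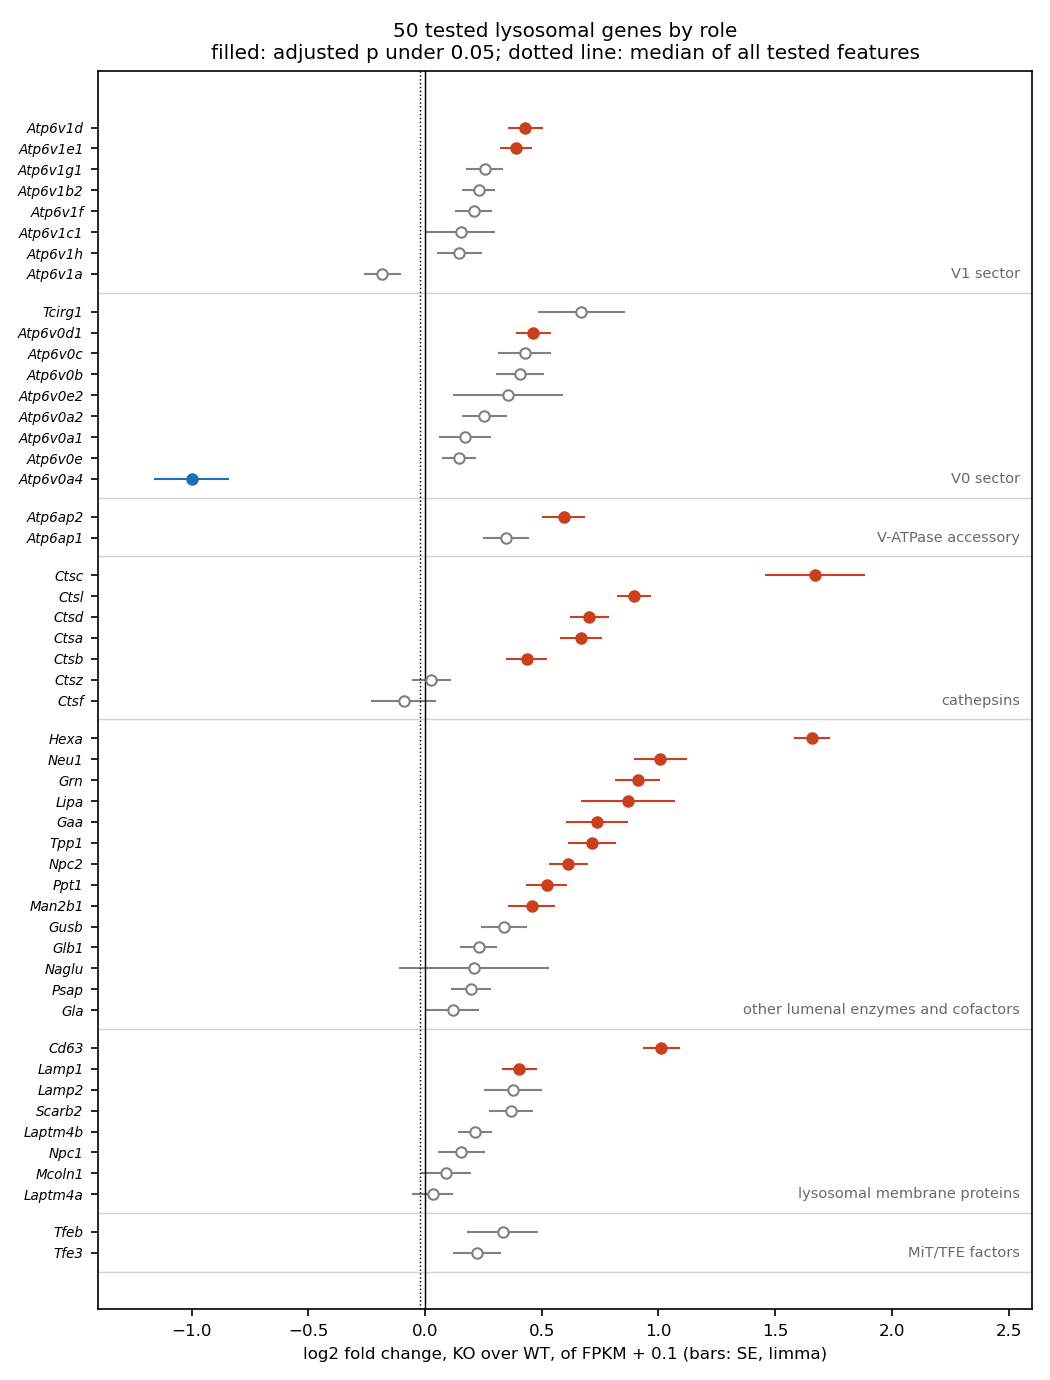
Log2 fold change, KO over WT, of each of the 50 tested genes by role, with the standard error of the limma fit as a bar; filled symbols have an adjusted p under 0.05 and the dotted line is the median of all 12990 tested features. Cathepsins and other lumenal enzymes reach 1.67 and 1.66, whereas the V-ATPase genes lie mostly between 0 and 0.67.

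V-ATPase genes were moderately higher in KO. Of the 19, 4 rose, 1 (the merged *Atp6v0a4* feature) fell and 14 did not pass the test, with a median log2 fold change of 0.25. Over all tested features 6.85% rose and 5.6% fell. Both KO libraries were above both WT libraries for 14 of the 19 genes, where 27% of all features were. In the V1 sector, *Atp6v1d*, which encodes the central shaft subunit D, was measured at 51.9 and 55.1 FPKM in WT and 71.0 and 73.1 FPKM in KO. *Atp6v1e1*, for the peripheral stalk subunit E, was at 55.1 and 54.2 FPKM in WT and 70.7 and 72.5 FPKM in KO. Both genes thus separated the genotypes by far more than the replicates differed, with log2 fold changes of 0.43 ± 0.07 (adjusted p = 0.0213) and 0.39 ± 0.07 (adjusted p = 0.0234), here and below ± SE of the limma fit. In the V0 sector, *Atp6v0d1*, for the subunit d that joins the rotor to the central shaft, rose from 55.9 and 59.6 FPKM to 78.8 and 80.4 FPKM (log2 fold change 0.46 ± 0.07, adjusted p = 0.0172). The accessory gene *Atp6ap2*, whose product is the (pro)renin receptor, rose from 21.3 and 23.3 FPKM to 32.2 and 35.2 FPKM (log2 fold change 0.59 ± 0.09, adjusted p = 0.0155), and *Atp6ap1* was at 18.1 and 16.2 FPKM in WT and 22.8 and 20.9 FPKM in KO (adjusted p = 0.0778).

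The most abundant V-ATPase transcripts were *Atp6v0c* and *Atp6v1f*. *Atp6v0c*, for the ring subunit c, was at 313 and 272 FPKM in WT and 425 and 361 FPKM in KO, a log2 fold change of 0.43 ± 0.11 that did not pass the test (adjusted p = 0.0673). *Atp6v1f* stood highest in the V1 sector, at 197 and 185 FPKM in WT and 230 and 212 FPKM in KO (log2 fold change 0.21 ± 0.08, adjusted p = 0.150). For both genes the KO values lay above the WT values. *Atp6v1a*, for the catalytic subunit A, was the only gene of its sector below WT, at 53.0 and 57.4 FPKM in WT and 47.5 and 49.6 FPKM in KO (log2 fold change -0.18 ± 0.08, adjusted p = 0.189). The other V1 genes, *Atp6v1b2*, *Atp6v1c1*, *Atp6v1g1* and *Atp6v1h*, had log2 fold changes between 0.15 and 0.25 with no call, as did *Atp6v0b* at 0.41 (adjusted p = 0.0581). Summed over each sector, V1 transcripts amounted to 607 ± 11.6 FPKM in WT and 707 ± 5.94 FPKM in KO (mean ± SD, n = 2), and V0 transcripts to 540 ± 31.7 and 700.0 ± 59.95 FPKM, ratios of 1.16 and 1.30.

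**Figure D2:**
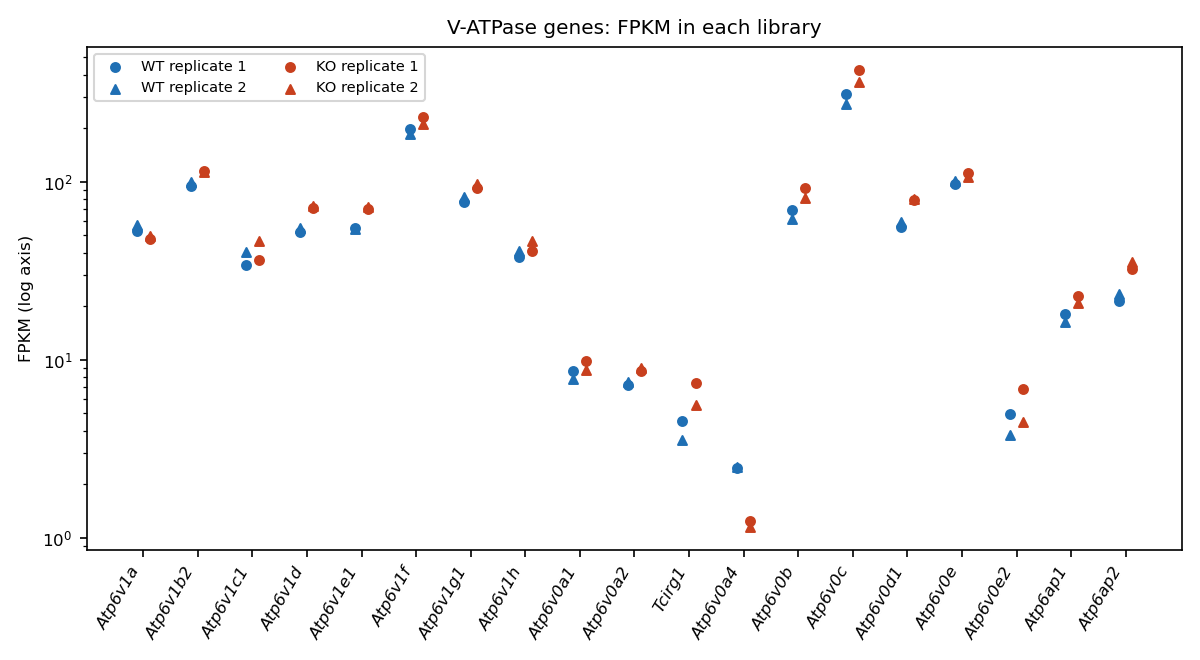
FPKM of the 19 V-ATPase genes in each library, on a log axis, with WT in blue, KO in red, replicate 1 as circles and replicate 2 as triangles. Both KO values lie above both WT values for 14 genes and below them for *Atp6v1a* and *Atp6v0a4*.

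Several V-ATPase subunits exist as alternative proteins that direct the pump to different membranes. Subunit a has 4 such genes. *Atp6v0a1* was at 8.62 and 7.81 FPKM in WT and 9.80 and 8.73 FPKM in KO, and *Atp6v0a2* at 7.21 and 7.51 FPKM in WT and 8.65 and 8.93 FPKM in KO. *Tcirg1*, for the a3 subunit found in lysosomes and in the ruffled border of osteoclasts, was at 4.51 and 3.54 FPKM in WT and 7.36 and 5.58 FPKM in KO. Its log2 fold change of 0.67 ± 0.19 was the largest of the 19 genes, yet it did not pass the test (adjusted p = 0.0737). Of the FPKM summed over these 3 genes, *Tcirg1* made up 22.2% and 18.8% in WT and 28.5% and 24.0% in KO, whereas *Atp6v0a1* made up 42.4% and 41.4% in WT and 37.9% and 37.6% in KO. The feature of *Atp6v0a4*, a gene known from kidney and inner ear, fell from 2.48 and 2.48 FPKM to 1.23 and 1.15 FPKM (log2 fold change -1.0 ± 0.16, adjusted p = 0.0177). It is merged with *D630045J12Rik*, a neighbour on the same strand, and covers chr6:38048483-38254265 of GRCm38, so the level cannot be assigned to either gene.

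For subunit e, *Atp6v0e* was at 97.2 and 100.3 FPKM in WT and 112 and 107 FPKM in KO (adjusted p = 0.240) and *Atp6v0e2* at 4.97 and 3.76 FPKM in WT and 6.87 and 4.49 FPKM in KO (adjusted p = 0.370). *Atp6v0e* therefore accounted for 94.2% to 96.4% of the FPKM summed over both genes in every library. Transcripts for the B, C, E and G subunits were almost wholly those of *Atp6v1b2*, *Atp6v1c1*, *Atp6v1e1* and *Atp6v1g1*, each with at least 99.0% of the FPKM of its subunit. Protein levels were not measured here. Their alternatives *Atp6v1b1*, *Atp6v1c2* and *Atp6v1e2* did not exceed 0.111 FPKM and were not tested. *Atp6v1g2*, without a call (adjusted p = 0.697), was at 0.742 and 0.679 FPKM in WT and 0.671 and 0.571 FPKM in KO.

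The V-ATPase count depended on the model and on single libraries. With the replicate number added to the model as a block, 13 of the 19 rose and 2 fell. Over all features 13.9% rose and 17.3% fell in that fit. Without a variance trend *Atp6ap2* alone of the 19 rose (adjusted p = 0.0476), near the share of all features (5.45%). The adjusted p of *Atp6v0d1*, *Atp6v1d* and *Atp6v1e1* was then 0.0586, 0.0675 and 0.0727. *Atp6v1e1* lost its call without WT replicate 2 or either KO library, and *Atp6v1d* without KO replicate 2. *Tcirg1*, *Atp6v0b* and *Atp6v0c* gained one without WT replicate 1 or KO replicate 2, and *Atp6ap1* without WT replicate 1. With 1 library left out, the median log2 fold change stayed between 0.25 and 0.28. Of the 19 genes, 4 lie on chromosome 6 and *Atp6ap1* and *Atp6ap2* on the X, and the median of all tested features was 0.08 on chromosome 6 and -0.02 on the X. The 13 V-ATPase genes elsewhere had a median of 0.25, with 2 rising.

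Cathepsins are lysosomal proteases, and 5 of the 7 tested rose while 0 fell, with a median log2 fold change of 0.67. Over all tested features 6.85% rose and 5.6% fell. At an unadjusted p under 0.05 likewise 0 cathepsins fell, but the share of all features at that threshold was not counted. *Ctsl*, a cysteine protease and the most abundant of them, rose from 68.7 and 70.9 FPKM to 126 and 134 FPKM (log2 fold change 0.90 ± 0.07, adjusted p = 0.00380). *Ctsd*, the major aspartic protease of lysosomes, rose from 56.5 and 56.1 FPKM to 97.3 and 86.6 FPKM (log2 fold change 0.70 ± 0.08, adjusted p = 0.00806). The WT replicates of both were almost equal, and each KO value lay far above them. *Ctsc*, which activates serine proteases of immune granules, was scarce and rose from 0.545 and 0.720 FPKM to 2.14 and 2.29 FPKM (log2 fold change 1.67 ± 0.21, adjusted p = 0.00977).

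*Ctsa*, the protective protein that stabilises neuraminidase and beta-galactosidase, rose from 16.8 and 15.2 FPKM to 26.1 and 24.9 FPKM (log2 fold change 0.67 ± 0.09, adjusted p = 0.0110). *Ctsb* rose from 14.5 and 14.3 FPKM to 20.3 and 18.7 FPKM (log2 fold change 0.44 ± 0.09, adjusted p = 0.0304). Its call was lost without KO replicate 1 (adjusted p = 0.110) and without WT replicate 2 (adjusted p = 0.0524). Not all cathepsins shared the rise. *Ctsz* was at 52.6 and 48.2 FPKM in WT and 53.2 and 49.4 FPKM in KO (log2 fold change 0.03 ± 0.08), and *Ctsf* at 5.28 and 5.82 FPKM in WT and 5.76 and 4.70 FPKM in KO (log2 fold change -0.09 ± 0.14). Summed over all 8 genes, cathepsin transcripts were 213 ± 2.75 FPKM in WT and 326 ± 7.28 FPKM in KO (mean ± SD, n = 2), a ratio of 1.53.

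Of the 14 tested genes of other lumenal enzymes and cofactors, 9 rose and 0 fell, beside 6.85% and 5.6% of all features. At an unadjusted p under 0.05 likewise 0 fell. All 14 had a log2 fold change above 0, with a median of 0.57. *Hexa*, the alpha subunit of beta-hexosaminidase, which degrades the ganglioside GM2, rose from 11.2 and 11.6 FPKM to 36.3 and 36.1 FPKM. The replicates differed by less than 1 FPKM, and the log2 fold change of 1.66 ± 0.08 had the smallest adjusted p of the 50 genes (0.00119). The gene lies at chr9:59539659-59565106 and overlaps *Tmem202* on the other strand. *Neu1*, the lysosomal sialidase, rose from 2.96 and 2.87 FPKM to 6.05 and 5.87 FPKM (log2 fold change 1.01 ± 0.11, adjusted p = 0.00725). *Grn*, whose product progranulin is cleaved to granulins in lysosomes, rose from 25.7 and 22.3 FPKM to 46.4 and 43.7 FPKM (log2 fold change 0.91 ± 0.10, adjusted p = 0.00629). In each of these 3 genes the lowest KO value was well above the highest WT value.

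Another 6 enzymes and cofactors rose. *Gaa*, which degrades glycogen, went from 13.5 and 11.02 FPKM to 22.0 and 19.0 FPKM (log2 fold change 0.74 ± 0.13, adjusted p = 0.0239), and *Tpp1*, a serine protease, from 13.1 and 11.2 FPKM to 19.8 and 20.1 FPKM (0.72 ± 0.10, adjusted p = 0.0130). *Npc2*, which binds cholesterol in the lumen, went from 28.2 and 26.9 FPKM to 44.1 and 40.3 FPKM (log2 fold change 0.61 ± 0.08, adjusted p = 0.0112). These 3 genes kept separate genotypes in all libraries, but *Gaa* lost its call without a variance trend and without the filter on low values. *Lipa*, the acid lipase, rose from 1.32 and 1.23 FPKM to 2.08 and 2.80 FPKM (0.87 ± 0.20, adjusted p = 0.0453), *Ppt1*, a thioesterase that removes fatty acids from proteins, from 9.09 and 8.90 FPKM to 13.2 and 12.7 FPKM (0.52 ± 0.09, adjusted p = 0.0204), and *Man2b1*, an alpha-mannosidase, from 11.4 and 10.6 FPKM to 15.97 and 14.2 FPKM (0.46 ± 0.10, adjusted p = 0.0412). All 3 depended on single libraries. The call of *Lipa* was lost without KO replicate 2 (adjusted p = 0.158), that of *Ppt1* without KO replicate 1 (adjusted p = 0.0573) and that of *Man2b1* without KO replicate 1 (adjusted p = 0.137) or WT replicate 2 (adjusted p = 0.0842).

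The 5 lumenal genes without a call were *Gusb*, *Glb1*, *Naglu*, *Psap* and *Gla*, with log2 fold changes between 0.12 and 0.34. *Psap*, the precursor of the saposins that present lipids to hydrolases, was the most abundant gene of the group, at 55.5 and 50.3 FPKM in WT and 62.8 and 58.5 FPKM in KO (log2 fold change 0.20 ± 0.09, adjusted p = 0.193). The genotypes overlapped for *Naglu* alone, whose levels ran from 0.633 to 1.14 FPKM. Enzyme transcripts therefore did not all rise to one extent, the largest fold change being that of *Hexa* and the smallest that of *Gla*. Summed over the 15 genes of the group, transcripts were 205 ± 12.7 FPKM in WT and 310 ± 12.4 FPKM in KO (mean ± SD, n = 2), a ratio of 1.51.

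**Figure D3:**
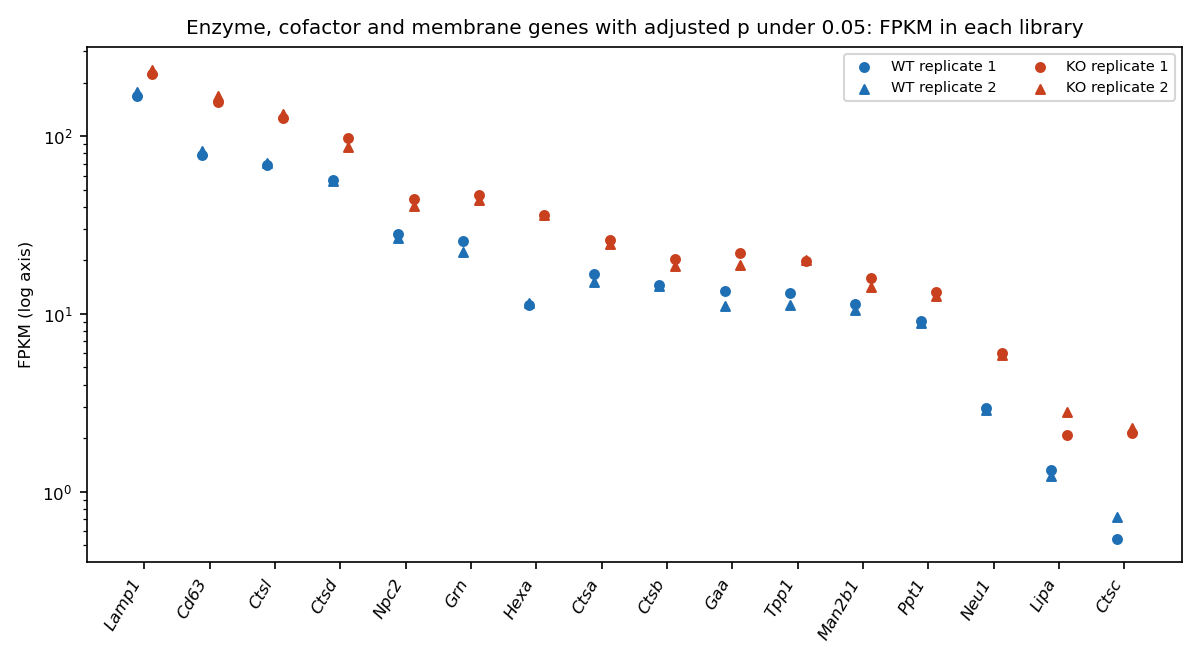
FPKM, on a log axis, of the 16 genes outside the V-ATPase that rose at an adjusted p under 0.05, in each library (WT blue, KO red; replicate 1 circles, replicate 2 triangles), ordered by mean level. The genotypes do not overlap for any of these genes, and the gap is widest for *Hexa* and *Ctsc*.

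Among the 8 lysosomal membrane proteins 2 rose and 0 fell, beside 6.85% and 5.6% of all features. At an unadjusted p under 0.05 likewise 0 fell. The median log2 fold change was 0.29. *Cd63*, a tetraspanin of lysosomes and exosomes, rose from 78.2 and 82.7 FPKM to 155 and 169 FPKM (log2 fold change 1.01 ± 0.08, adjusted p = 0.00326). *Lamp1*, which with LAMP2 forms most of the glycoprotein coat of the lysosomal membrane, was the most abundant and rose from 169 and 178 FPKM to 224 and 234 FPKM (0.40 ± 0.07, adjusted p = 0.0240). Both genes separated the genotypes, but *Lamp1* lost its call without WT replicate 1 and without KO replicate 2. Without a variance trend *Cd63* alone of the 8 rose, where 5.45% of all features did. *Lamp2* was at 10.1 and 12.1 FPKM in WT and 13.5 and 15.3 FPKM in KO (0.38 ± 0.12, adjusted p = 0.107), and it gained a call without WT replicate 2. *Scarb2*, the receptor that carries glucocerebrosidase to lysosomes, was at 14.9 and 14.8 FPKM in WT and 18.1 and 20.3 FPKM in KO (0.37 ± 0.09, adjusted p = 0.0580).

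The 4 remaining membrane genes, *Laptm4a*, *Laptm4b*, *Npc1* and *Mcoln1*, had log2 fold changes between 0.03 and 0.21 without a call. *Mcoln1*, for the lysosomal calcium channel TRPML1, is merged with *Pnpla6* in the files, so its level is not known on its own. The summed level of the 8 genes was 459 ± 9.24 FPKM in WT and 617 ± 5.39 FPKM in KO (mean ± SD, n = 2), a ratio of 1.35. This sum is weighted to abundant genes such as *Lamp1* and *Cd63* and includes the merged *Mcoln1* feature.

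Neither transcription factor passed the test, at an unadjusted p under 0.05 either. *Tfeb* was at 31.1 and 23.7 FPKM in WT and 37.1 and 31.7 FPKM in KO, a log2 fold change of 0.33 ± 0.15 (adjusted p = 0.207). *Tfe3* was at 24.6 and 22.4 FPKM in WT and 29.4 and 25.5 FPKM in KO, a log2 fold change of 0.22 ± 0.10 (adjusted p = 0.217). Both KO values exceeded both WT values for each gene, but the lower KO value of *Tfeb* lay within 1 FPKM of the higher WT value. Without WT replicate 1 the difference in *Tfeb* rose to 0.53 and passed the test (adjusted p = 0.00906), WT replicate 1 being the higher of the WT values. With the replicate number added to the model as a block, *Tfeb* and *Tfe3* were both called higher, where 13.9% of all features were. Their transcript levels do not report where the proteins are in the cell, which was not measured here.

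Set side by side, cathepsins stood above the other lumenal enzymes, and these above the V-ATPase and the membrane proteins, in both KO libraries. Relative to the WT mean of each gene, the median log2 level was 0.70 and 0.62 for cathepsins, 0.61 and 0.52 for other lumenal enzymes, 0.26 and 0.31 for membrane proteins and 0.27 and 0.28 for the V-ATPase. The V-ATPase and the membrane proteins changed places between the KO libraries and could not be ordered. The WT libraries lay between -0.05 and 0.05 in all 4 groups. Since each gene was centred on its WT mean, the 2 WT values mirror each other about 0. They do not measure how far single genes differed between the WT libraries. With 2 libraries of each genotype an exact permutation test of such a value cannot give a two-sided p below 0.333. The share of tested genes that rose was 66.7% for the 21 cathepsins and lumenal enzymes, 25.0% for membrane proteins and 21.1% for the V-ATPase. Over all tested features it was 6.85%. The difference between these shares was not tested, because genes of 1 group are not replicates.

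**Figure D4:**
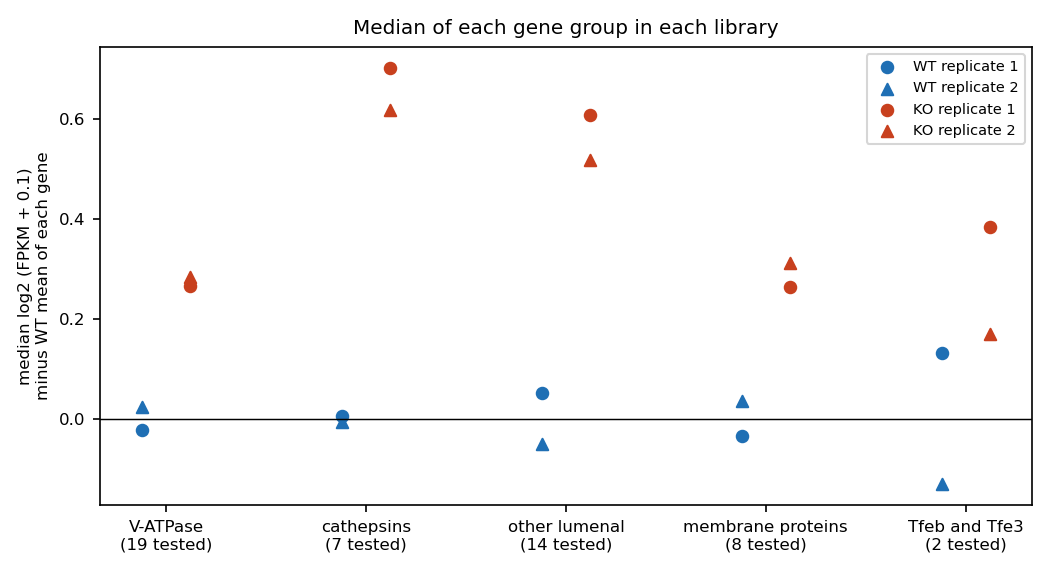
Median over the tested genes of each group of log2(FPKM + 0.1) minus the WT mean of each gene, in each library (WT blue, KO red; replicate 1 circles, replicate 2 triangles). KO libraries lie at 0.62 and 0.70 for cathepsins and at 0.27 and 0.28 for the V-ATPase, and the WT libraries of *Tfeb* and *Tfe3* are the furthest apart.

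E-boxes were then sought in the promoters of these genes, since the E-box CACGTG and its extended form TCACGTGA are known sites of TFEB and TFE3. RefSeq promoters of GRCm38.p6, from 250 bases before to 50 bases after each transcript start, were present for 43 of the 52 genes. Both words read the same on either strand, and each TCACGTGA contains a CACGTG. The E-box was found for 15 of the 43 genes (34.9%), compared with 8.09% of all 27025 symbols in the promoter table, and TCACGTGA for 7 genes (16.3%) compared with 1.12%. The stretches around the extended form are shown because these genes carry the site described for lysosomal genes, and *Lamp1* because it has 4 E-boxes in a row; *Gla* has another extended site not shown. Each stretch is written 5′ to 3′ on the strand of the gene, with E-boxes in capitals and, where present, the flanking T and A.
*Atp6v0d1*, chr8:105566050-105566079, minus strand: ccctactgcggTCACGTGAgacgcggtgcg
*Ctsa*, chr2:164833749-164833778, plus strand: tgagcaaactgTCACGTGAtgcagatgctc
*Ctsa*, chr2:164833766-164833795, plus strand: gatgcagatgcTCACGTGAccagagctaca
*Ctsd*, chr7:142387908-142387937, minus strand: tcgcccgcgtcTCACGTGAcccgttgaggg
*Atp6v1a*, chr16:44139338-44139437, minus strand: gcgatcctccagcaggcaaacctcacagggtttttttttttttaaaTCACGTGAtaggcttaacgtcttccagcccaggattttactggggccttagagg
*Atp6v0e*, chr17:26676387-26676416, plus strand: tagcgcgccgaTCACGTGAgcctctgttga
*Gla*, chrX:134601182-134601211, minus strand: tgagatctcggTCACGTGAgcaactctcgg
*Mcoln1*, chr8:3500462-3500491, plus strand: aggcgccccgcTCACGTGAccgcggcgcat
*Lamp1*, chr8:13159054-13159160, plus strand: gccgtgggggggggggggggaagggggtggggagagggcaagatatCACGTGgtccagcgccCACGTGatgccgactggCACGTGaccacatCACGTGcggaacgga

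The extended site was found at like shares in genes with and without a call. Of the 19 rising genes with a promoter, 3 (15.8%: *Atp6v0d1*, *Ctsa* and *Ctsd*) held TCACGTGA and 6 held an E-box, those 3 with *Ctsl*, *Gaa* and *Lamp1*. Of the 22 tested genes with a promoter and no call, 4 (18.2%: *Atp6v1a*, *Atp6v0e*, *Gla* and *Mcoln1*) held TCACGTGA and 8 held an E-box. *Hexa*, *Cd63*, *Neu1* and *Ctsc*, the genes that rose over 2-fold, had neither word in these windows, from which nothing follows about sites elsewhere. In *Ctsa* the extended sites began 13 bases before and 4 bases after the annotated start, in *Ctsd* 99 bases before it and in *Atp6v1a* 132 bases before it. That of *Atp6v0d1* began 4 bases before the start and ran across it. Both *Gla* sites lie inside an exon of *Hnrnph2*. The extended sites of *Ctsa*, *Ctsd*, *Atp6v0e* and *Mcoln1* lie inside annotated exons of their own genes. These matches are sequence features and no binding was measured here.

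Genes related to this set were described with lists of other lysosomal and V-ATPase genes. Over 117 tested features of 7 such lists 21 rose (17.9%, beside 6.85% of all features) and *Gabarapl2* fell (5.6% of all features), with a median log2 fold change of 0.18. Factors that assemble the V-ATPase or control it had a median of 0.13 and 1 rising gene of 11, *Tmem199* (21.9 and 23.0 FPKM in WT, 28.6 and 29.9 FPKM in KO, adjusted p = 0.0352), a call lost without WT replicate 1 or either KO library (adjusted p up to 0.121). That share of 9.09% is near that of all features. Other lysosomal enzymes had 6 of 25 and a median of 0.33. *Aga*, which cleaves asparagine from glycans, rose from 5.45 and 5.60 FPKM to 13.0 and 13.2 FPKM (log2 fold change 1.23 ± 0.09, adjusted p = 0.00278), and *Arsa*, arylsulfatase A, from 2.26 and 2.06 FPKM to 5.04 and 3.92 FPKM (1.01 ± 0.17, adjusted p = 0.0187). Both kept their calls whichever library was left out.

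Other lysosomal membrane proteins had a median of 0.31 and 3 rising genes of 19, where 6.85% of all features rose. These were the cystine exporter *Ctns* (log2 fold change 0.60), *Glmp* (0.54) and the chloride-proton exchanger *Clcn7* (0.54). Enzyme sorting had a median of 0.21 and 3 rising genes of 13, beside the same 6.85% of all features. These were *Gnptg* (0.64), a subunit of the enzyme that makes the mannose 6-phosphate tag, and the sorting receptors *Sort1* (0.62) and *Igf2r* (0.56). Without KO replicate 1 *Ctns*, *Glmp*, *Gnptg* and *Sort1* lost their calls. *Ctns* and *Sort1* also lost theirs without WT replicate 2, and *Sort1* without KO replicate 2. Without a variance trend 0 of the 19 membrane genes rose and 2 of the 13 sorting genes did, *Igf2r* and *Sort1*, beside 5.45% of all features. The sorting receptors and exporters had smaller changes than *Aga* and *Arsa*. Features of *Gnptg* (with *Unkl*, *Tsr3* and *Baiap3*) and *Arsa* (with *C230037L18Rik*) share their coordinates with neighbours, so their levels are less certain. That of *Igf2r* extends beyond the gene, which overlaps *Airn* on the other strand. Without the filter on low values *Arsa*, *Ctns*, *Glmp*, *Gnptg* and *Sort1* lost their calls.

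Genes around mTORC1 and TFEB had 4 rising of 21, beside 6.85% of all features, with a median log2 fold change of only 0.05. *Rragd*, a Rag GTPase that recruits mTORC1 to lysosomes and a known TFEB target, rose from 2.09 and 2.06 FPKM to 7.23 and 7.80 FPKM (log2 fold change 1.81 ± 0.12, adjusted p = 0.00215), more than any of the 50 lysosomal genes tested. *Flcn*, which activates that Rag GTPase, rose from 14.4 and 13.6 FPKM to 21.4 and 19.6 FPKM (0.54 ± 0.09, adjusted p = 0.0189), as did its partner *Fnip1* (0.53 ± 0.12, adjusted p = 0.0430). *Fnip1* lost its call without WT replicate 1 or KO replicate 2, and *Fnip2* whichever library was left out, so the count depended on single libraries. Without a variance trend 2 of the 21 rose, *Rragd* and *Flcn*, beside 5.45% of all features. The other Rag genes did not move in this way, *Rraga* having a log2 fold change of -0.25 without a call.

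In autophagy 4 of 27 features rose and 1 fell, beside 6.85% and 5.6% of all features, with a median of 0.18. *Sqstm1*, the cargo receptor p62, rose from 58.6 and 57.6 FPKM to 133 and 122 FPKM (log2 fold change 1.13 ± 0.08, adjusted p = 0.00226). The ATG8 family split. *Gabarapl1* rose from 6.90 and 6.52 FPKM to 14.3 and 14.0 FPKM (1.07 ± 0.09, adjusted p = 0.00414) and *Gabarap*, merged with *Ctdnep1* in the files, from 60.4 and 56.9 FPKM to 84.5 and 85.3 FPKM (0.53 ± 0.07, adjusted p = 0.0112), whereas *Gabarapl2* fell from 111 and 117 FPKM to 88.9 and 88.5 FPKM (-0.36 ± 0.07, adjusted p = 0.0289). The fall of *Gabarapl2* was no longer called without WT replicate 2 or either KO library (adjusted p up to 0.106).

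**Figure D5:**
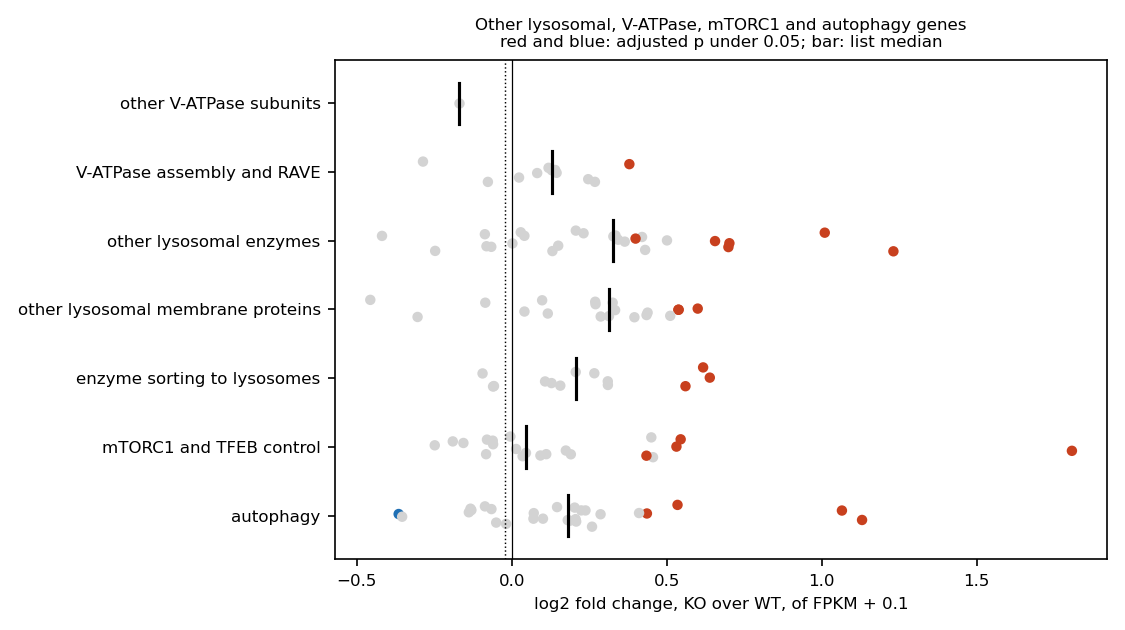
Log2 fold change, KO over WT, of each tested feature of 7 further lists, with the list median as a bar, rises at an adjusted p under 0.05 in red and falls in blue; the dotted line is the median of all tested features. *Rragd* lies furthest to the right at 1.81, and *Gabarapl2* is the only fall.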

How the data were processed

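Total RNA of 2 WT and 2 KO libraries was depleted of ribosomal RNA before library preparation. According to the submitters' processing notes, TopHat2 2.1.1, Bowtie2 2.3.0 and Cufflinks 2.2.1 were used with GRCm38 (mm10), and the authors deposited FPKM per feature and library. The strand setting is not given in the sources used here, so antisense overlaps such as that of *Hexa* cannot be resolved, and genes that share a locus were divided by Cufflinks. Features with comma-merged symbols were matched through each symbol. Starts were counted from 0 in the files, and 1 was added. Groups came from the sample titles.

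Log2(FPKM + 0.1) of 12990 features (mean over the 4 libraries 0.5 FPKM or more) was compared between genotypes with limma 3.58.1 in R 4.3.3 (moderated test with a variance trend, two-sided, Benjamini-Hochberg adjustment over all tested features). Fold changes on this scale understate changes of low genes. The study's rule adds a change over 2-fold. Adjusted p-values come from this test or, where stated, from a variant of it. The test was also run on simulated data whose noise was independent and set by level, as the model itself assumes. P-values rest on the spread between 2 libraries per genotype, drawn toward the spread of all tested features of like level. Tables and plots used Python 3.11.15, pandas 2.3.3 and matplotlib 3.10.9.

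The genes and lists were chosen with earlier results of these data known. Full values are given for each of the 52 genes with an adjusted p under 0.05, for *Tfeb* and *Tfe3*, for the most abundant gene of each group and for alternative V-ATPase subunits. Further lists are represented by the 3 largest rises and falls that passed the test. The values of 1 gene that this rule names are not reported here. *Cd68*, merged with an abundant neighbour, was left out of the macrophage markers. Other pseudocounts, filters, scalings, a replicate block and leaving out each library were tried, and 3 alternatives were added after seeing the data.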

Additional observations from a re-analysis of the deposited data

How the results depend on the processing

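With the replicate number as a block 37 of the 50 tested lysosomal genes were higher and 2 lower, and 41 and 5 in the further lists, while the shares of all features rose to 13.9% and 17.3%; 13 V-ATPase genes, *Tfeb* (adjusted p = 0.0155) and *Tfe3* (adjusted p = 0.0233) were among those higher. The numbers are shared in the labels, and the sources used here do not say whether libraries of a number were handled together. The change from replicate 1 to 2 in WT and KO had a Pearson correlation of 0.07 and a Spearman correlation of 0.39 across genes. These values do not settle whether the 2 libraries of a number are pairs. The fit reported above left such pairing out, and many calls depend on that choice. Without a variance trend 12 lysosomal genes were higher (5.45% of all features), *Atp6v1d*, *Atp6v1e1*, *Atp6v0d1*, *Ctsb*, *Lipa*, *Gaa*, *Man2b1* and *Lamp1* losing their calls. In the further lists 12 and 0 genes were then higher and lower. Without a filter on low values 11 of the further lists were higher (2.91% of all features). Leaving out 1 library at a time, with the remaining library of that genotype assumed to vary like the others, changed which genes were called. Medians were then 0.25 to 0.28 for the V-ATPase, 0.60 to 0.71 for cathepsins, 0.52 to 0.61 for other lumenal enzymes and 0.25 to 0.31 for membrane proteins. The call was kept in all 14 other fits by 12 genes: *Atp6v0a4* (a merged feature), *Atp6ap2*, *Ctsa*, *Ctsc*, *Ctsd*, *Ctsl*, *Hexa*, *Neu1*, *Tpp1*, *Grn*, *Npc2* and *Cd63*. Quantile normalization gave medians of 0.30 for the V-ATPase and 0.32 for membrane proteins, and no filter gave 0.55 for cathepsins, where *Ctsh* was added. Of the alternatives chosen after seeing the data, leaving features without a symbol out of the test gave 24 genes higher and 1 lower, and 25 and 1 in the further lists, leaving out genes in shared or merged loci gave 15 genes higher, 0 lower (*Atp6v0a4* being such a locus) and medians of 0.35, 0.80, 0.72 and 0.37 in the order above, and leaving out chromosomes 6 and X gave 18 higher, 0 lower and a membrane median of 0.21. Of genes without a call, 6 changed sign, each when a library was left out, with log2 fold changes from -0.029 to 0.33 for *Atp6v1c1*, -0.23 to 0.053 for *Ctsf*, -0.035 to 0.089 for *Ctsz*, -0.12 to 0.54 for *Naglu*, -0.026 to 0.20 for *Mcoln1* and -0.055 to 0.12 for *Laptm4a*. The cause of these changes was not tested. FPKM give no depth, so the precision of low values such as those of *Ctsh* cannot be stated.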
